A study of Homo sapiens with 15 samples.

Results

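The data described here are the binding sites of RUNX1 and of the cohesin subunit SMC3 in TF-1 cells that express the mutant RAD21 Q592*, set against each other within that line. The members were taken by target, line and chromosome and not by any measured value: all peaks on the 22 autosomes in the pooled RUNX1 list (15216 peaks) and the pooled SMC3 list (31878 peaks) of Q592*. Together these are 47094 peaks. On all contigs both lists hold 48371 of the 198298 peaks in the 6 lists of the series. A joint pair is a RUNX1 peak and an SMC3 peak that share 1 bp or more. Peaks linked by such pairs formed a joint site, and a peak with no partner is called RUNX1-only or SMC3-only. TF-1 is a human erythroleukemia line. The cells carried an inducible vector for RAD21 Q592* or, in the comparison line, for wild-type (WT) RAD21, and both lines were grown with cytokines and received doxycycline for 6 days. The RUNX1 list of Q592* belongs to a group with 1 library by its labels and the SMC3 list to a group with 2, and Q592* GATA2, the inputs of each line and each WT target also have 2 libraries. The vector adds the mutant protein to cells of 1 line, and the labels do not say what became of their own RAD21 or whether a clone was used.

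RUNX1 is a DNA-binding transcription factor that blood stem and progenitor cells need, and it acts at promoters and enhancers together with its partner CBFB. SMC3, SMC1A and RAD21 form the cohesin ring, which extrudes chromatin loops and is held mainly at sites of the DNA-binding protein CTCF, while a smaller share of cohesin is found at active enhancers and promoters. RAD21 closes the ring, and Q592* carries a premature stop codon. GATA2, the other factor profiled in these cells, is a zinc-finger factor that often occupies the same blood enhancers as RUNX1.

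Each list is 1 pooled call, so no spread between libraries can be given and nothing was tested between lists. Intervals are 95% Wilson intervals for shares and order-statistic intervals for medians, and they cover counting error only. Strength is given as the authors' fold enrichment (ChIP signal at the summit over the local background) or as −log10 q. RUNX1 peaks had a median fold of 4.64 (range 1.38 to 48.5) and a median width of 235 bp, and SMC3 peaks a median fold of 5.88 (1.34 to 40.6) and a median width of 333 bp. The ChIP reads at a summit, recovered from the deposited values, ranged from 22 to 779 for RUNX1 (median 69) and from 20 to 600 for SMC3 (median 79). Both lists end at a −log10 q of about 2.00 (2.01 for RUNX1), so a partner weaker than that is not seen and "RUNX1-only" means that no SMC3 peak was called, not that cohesin was absent.

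Most RUNX1 peaks of the mutant line had no cohesin peak on them, and most cohesin peaks had no RUNX1. Of the 15216 RUNX1 peaks 3818 were joint, which is 25.1% (24.4 to 25.8%), and 11398 were RUNX1-only. Of the 31878 SMC3 peaks 3827 were joint, which is 12.0% (11.7 to 12.4%), and 28051 were SMC3-only. The 3855 joint pairs fell into 3790 joint sites, of which 3728 held exactly 1 peak of each target. A further 27 sites held more than 1 RUNX1 peak (at most 3) and 37 more than 1 SMC3 peak (at most 2). These counts depended on how weak an SMC3 peak was allowed to be. With a −log10 q of at least 10 in both lists 11.5% of RUNX1 and 4.83% of SMC3 peaks were joint, and with the SMC3 list trimmed to its 15216 strongest peaks the values were 3.85% and 3.81%.

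Joint pairs lay well on top of each other. The median overlap was 211 bp, which covered 85.5% of the RUNX1 peak and 78.3% of the SMC3 peak (medians over pairs). The RUNX1 peak lay wholly inside the SMC3 peak in 1188 pairs (30.8%) and the SMC3 peak inside the RUNX1 peak in 844 (21.9%). Few places sat near the limit of the overlap rule: 22 pairs (0.571%) overlapped by less than 20 bp, with a median fold of 3.79 for RUNX1 and 3.64 for SMC3 and a median summit distance of 252 bp. Just outside the limit, 9 RUNX1-only peaks had an SMC3 peak less than 20 bp from their edge, with a median RUNX1 fold of 4.48.

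The joint share followed strength in opposite directions for RUNX1 and SMC3, each taken over its own list. RUNX1 peaks were more often joint the stronger they were: 17.7% (15.8 to 19.7%) of the weakest decile by −log10 q, 19.3% (17.4 to 21.3%) of the fifth decile, 34.0% (31.7 to 36.5%) of the ninth and 46.8% (44.3 to 49.3%) of the strongest. SMC3 peaks were more often joint the weaker they were. RUNX1 was called at 34.3% (32.7 to 36.0%) of the weakest decile of SMC3 peaks, at 11.5% (10.5 to 12.7%) of the fourth and at 3.11% (2.56 to 3.77%) of the seventh. The strongest decile of SMC3 peaks stood slightly above that minimum, with 162 of 3187 joint (5.08%, 4.37 to 5.90%).

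**Figure D1:**
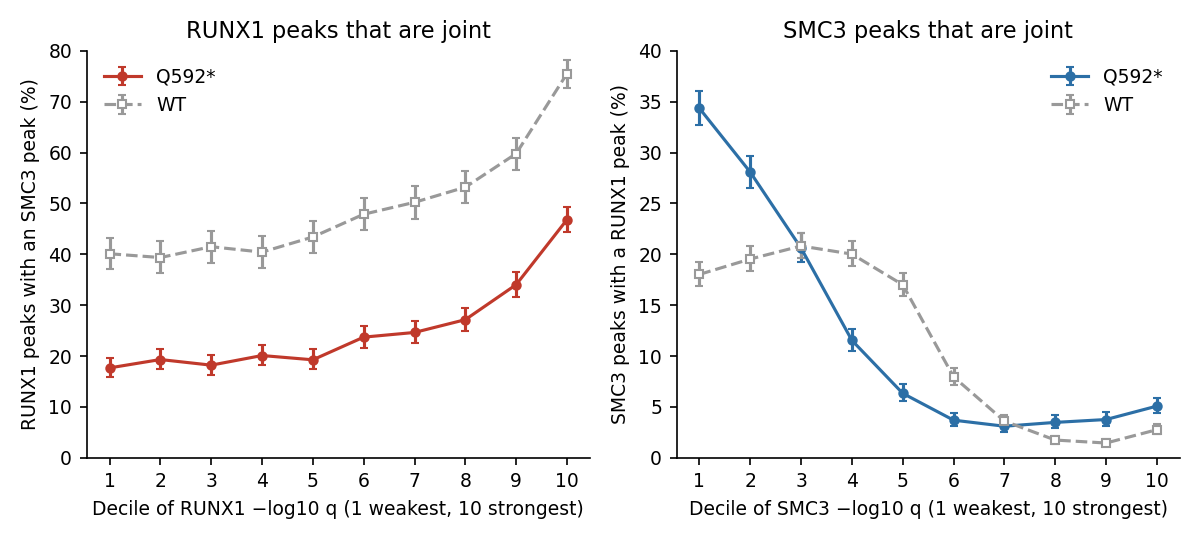
Share of RUNX1 peaks with an SMC3 peak (left) and of SMC3 peaks with a RUNX1 peak (right) by decile of the peak's own −log10 q, filled circles for Q592* and open squares for WT, with 95% Wilson intervals. In Q592* the RUNX1 share goes from 17.7% in the weakest to 46.8% in the strongest decile, and the SMC3 share from 34.3% to 5.08% with its lowest value, 3.11%, in the seventh.

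Joint and single peaks differed in strength in opposite directions for the 2 targets. Joint RUNX1 peaks had a median fold of 5.20 (quartiles 3.80 and 7.91) and a median of 82 reads at the summit, and RUNX1-only peaks 4.51 (3.54 and 5.98) and 65 reads. Joint SMC3 peaks had a median fold of 3.67 (2.96 and 4.72) and 50 reads, and SMC3-only peaks 6.31 (4.34 and 9.23) and 84 reads. The quartiles overlap, so strength alone does not tell a joint peak from a single one. Joint RUNX1 peaks were also wider than RUNX1-only peaks, with medians of 294 and 223 bp, whereas joint SMC3 peaks were narrower than SMC3-only peaks, with 304 and 336 bp. The local background at joint and single peaks was 2.42 and 2.32 times the genome-wide value for RUNX1 and 2.46 and 2.22 times for SMC3 (medians). Among peaks at or below 5 times the genome-wide background 24.16% of RUNX1 and 11.62% of SMC3 peaks were joint, and at or below 2 times 21.03% and 9.195%.

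The weakest quartile of the SMC3 list held most joint pairs. SMC3 was in its weakest quartile in 2360 of the 3855 pairs (61.2%), in the second in 876 (22.7%), in the third in 265 (6.87%) and in the strongest in 354 (9.18%). RUNX1 was in its strongest quartile in 1457 pairs (37.8%) and in its weakest in 706 (18.3%). The fullest of the 16 combinations was the strongest RUNX1 quartile with the weakest SMC3 quartile, with 910 pairs (23.6%). It joins the quartile of each target that held most pairs (37.8% and 61.2%), so its count alone shows no preferred pairing. Pairs with both partners in their strongest quartile numbered 78 (2.02%).

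GATA2 was present at most joint sites, although the rule did not use it. A GATA2 peak of the same line overlapped 3266 of the 3790 joint sites (86.2%, 85.04 to 87.2%). Over all RUNX1 peaks the share with GATA2 was 74.9%, and it was 85.7% (84.6 to 86.8%) for joint and 71.3% (70.5 to 72.1%) for RUNX1-only peaks. By quartile of RUNX1 strength the shares of joint and RUNX1-only peaks with GATA2 were 81.7% and 68.4% in the weakest, 78.4% and 67.4% in the second, 84.1% and 72.1% in the third and 92.5% and 79.3% in the strongest.

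For cohesin the contrast in GATA2 was wider, but a joint SMC3 peak lies on a RUNX1 peak by definition. GATA2 was also at 71.3% of RUNX1-only peaks, so a wide contrast partly follows from the classes. Over all SMC3 peaks 21.4% overlapped GATA2, compared with 86.0% (84.9 to 87.1%) of joint and 12.6% (12.2 to 13.0%) of SMC3-only peaks. The joint share with GATA2 dropped with SMC3 strength, from 93.9% (92.8 to 94.8%) in the weakest quartile through 88.5% and 63.1% to 44.0% (38.9 to 49.2%) in the strongest. SMC3-only peaks had GATA2 at 25.6%, 8.17%, 8.81% and 11.03% in the same order. Read the other way, RUNX1 was on 48.2% (47.01 to 49.4%) of the 6829 SMC3 peaks with GATA2 and on 2.14% (1.97 to 2.33%) of the 25049 without it. SMC3 was on 28.7% (27.9 to 29.5%) of the RUNX1 peaks with GATA2 and on 14.3% (13.2 to 15.5%) of those without. The 86.2% rests on the weak part of the SMC3 list: with the SMC3 list trimmed to 15216 peaks and the full GATA2 list, 50.95% of joint sites had GATA2, and with GATA2 trimmed to the same length 28.2%.

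Joint sites with and without GATA2 had different make-ups. At the 3328 pairs with GATA2, RUNX1 had a median fold of 5.46 and 83 reads and SMC3 a median fold of 3.58 and 47 reads. At the 527 pairs without it, RUNX1 had 4.08 and 77 reads and SMC3 5.85 and 107 reads, and the median SMC3 −log10 q was 33.1 against 7.69 with GATA2. The SMC3 fold at pairs without GATA2 was nearer to the 6.31 of SMC3-only peaks than that at pairs with GATA2 was. Local background was higher at the pairs without GATA2, at 3.15 (RUNX1) and 3.20 times (SMC3) the genome-wide value against 2.32 and 2.33 times with GATA2. Among peaks at or below 2 times the genome-wide background, the SMC3 medians were 5.36 for 170 pairs without GATA2 and 4.19 for 1118 with it, so the order held and the gap narrowed. With lists of equal length the order also held, at 9.36 and 8.11, but the GATA2 list was trimmed there too. The trimmed GATA2 list was at 28.15% of those joint sites and the full list at 50.95%. Some pairs counted there as without GATA2 therefore had a weaker GATA2 peak.

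**Figure D2:**
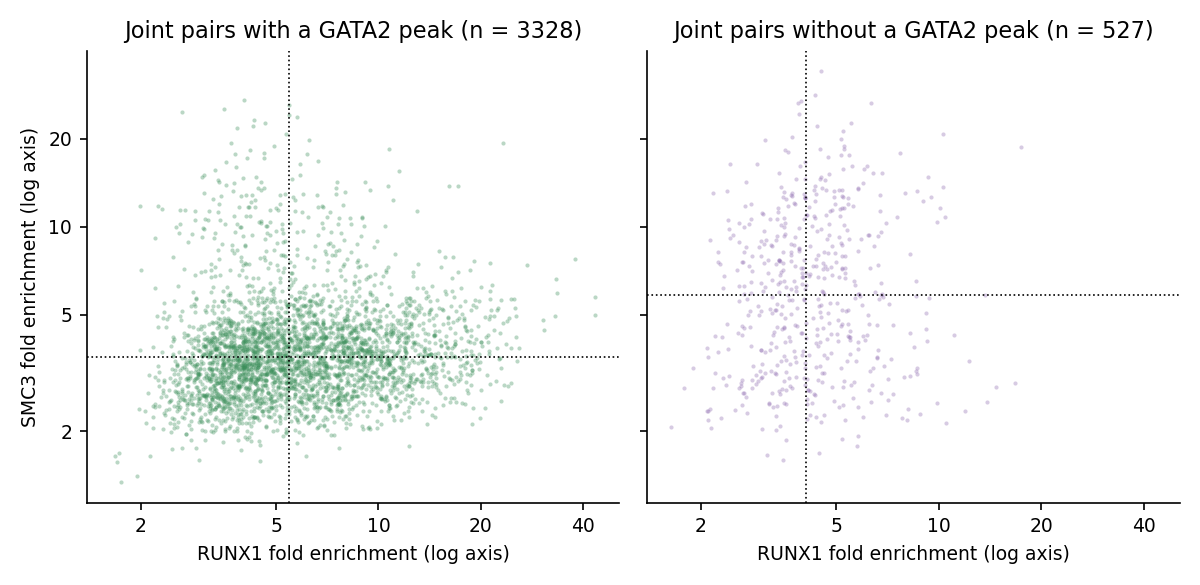
RUNX1 fold enrichment (horizontal, log axis) against SMC3 fold enrichment (vertical, log axis) for each joint pair of Q592*, with a GATA2 peak at the site on the left and without on the right; dotted lines mark the medians. The medians are 5.46 for RUNX1 and 3.58 for SMC3 in the 3328 pairs with GATA2, and 4.08 and 5.85 in the 527 pairs without it.

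GATA2 itself was strongest where RUNX1 and SMC3 were both called. The 3282 GATA2 peaks that overlapped both had a median fold of 14.3 (quartiles 8.50 and 22.03), the 7952 with RUNX1 alone 7.76 (5.03 and 12.4), the 3474 with SMC3 alone 5.26 (3.78 and 8.75) and the 42775 with neither 4.54 (3.62 and 6.16). The upper quartile of the last group lay below the lower quartile of the first.

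The summits of RUNX1 and SMC3 lay within 100 bp of each other in most joint pairs. The median distance was 55 bp (52 to 58), the quartiles were 23 and 108 bp, and the largest distance was 1297 bp. Of the 3855 pairs 27.0% had summits within 25 bp, 47.0% within 50 bp, 72.3% within 100 bp and 90.5% within 200 bp. Chromatin was sheared to 200 to 400 bp on average, so most of these distances are shorter than a fragment. Pairs without GATA2 had closer summits, with a median of 41 bp (36 to 45) against 59 bp (55 to 61) with GATA2, and 34.3% against 25.8% within 25 bp. This order held in each of the 6 alternatives in which it was computed, though with equal list lengths the GATA2 list was trimmed too. Joint RUNX1 peaks were wider with GATA2 (median 311 bp) than without (209 bp), and joint SMC3 peaks were narrower (296 and 355.5 bp). The median SMC3 reads at the summit were 47 and 107. Neither widths nor reads were matched between pairs with and without GATA2. Distance hardly varied with strength. Its rank correlation was -0.0026 with RUNX1 fold and -0.021 with SMC3 fold across the 3855 pairs, and the medians by SMC3 quartile were 57, 52, 61 and 46 bp from weakest to strongest. The upper tail was longer in the strongest SMC3 quartile, where 10% of pairs lay more than 354.7 bp apart. In the weakest quartile the same share lay more than 173.1 bp apart. The overlap rule allows larger distances at wider peaks, and widths were not matched between these quartiles.

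**Figure D3:**
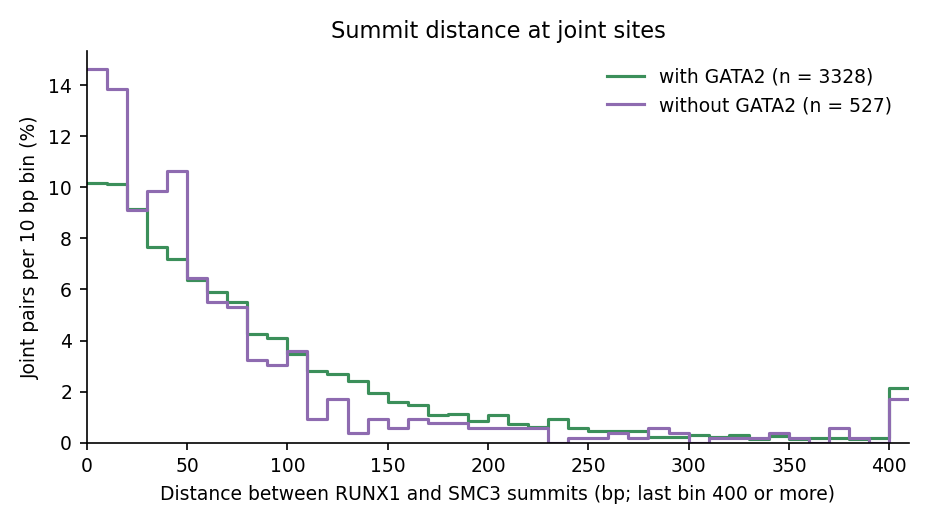
Percentage of joint pairs in each 10 bp bin of the distance between the RUNX1 and the SMC3 summit, for 3328 pairs with GATA2 and 527 without; the last bin collects 400 bp or more. Both distributions are highest in the 2 bins below 20 bp, and the pairs without GATA2 lie closer, with medians of 41 and 59 bp.

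Where all 3 targets were called, the RUNX1 and GATA2 summits were the nearest neighbours most often. Over the 3266 joint sites with GATA2, taking the strongest peak of each target, RUNX1 and GATA2 summits were a median of 35 bp apart (33 to 37), RUNX1 and SMC3 58 bp (55 to 61) and SMC3 and GATA2 62 bp (59 to 64). RUNX1 and GATA2 were the closest of the 3 combinations at 1601 sites (49.0%), RUNX1 and SMC3 at 858 (26.3%) and SMC3 and GATA2 at 769 (23.5%), with ties at 38. RUNX1 lay within 50 bp of GATA2 at 63.5% of these sites, and SMC3 within 50 bp of RUNX1 at 45.7%. At pairs with GATA2 the SMC3 summits had a median of 47 reads and the RUNX1 summits 83. Whether read number affects these distances was not tested.

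Over all joint pairs the ranks of RUNX1 and SMC3 strength were weakly related, and the value depended on the measure and on which pairs were pooled. Across the 3855 pairs the Spearman correlation of the folds was 0.06, that of the −log10 q values was -0.02, and that of the background-subtracted reads at the summit was 0.21. These are descriptions over sites of 1 pooled list each, not over replicates. The partners of a pair share their place in the genome and nearly the same local background (rank correlation 0.91), which is the denominator of both folds. Within pairs with GATA2 the correlation of the folds was 0.14 and within pairs without it 0.08. Within the quartiles of SMC3 −log10 q it was higher than over all pairs, at 0.21, 0.30, 0.20 and 0.27 from weakest to strongest. Within the quartiles of RUNX1 −log10 q it was 0.30, 0.26, 0.32 and 0.25. The −log10 q values showed no such rise, with 0.04, 0.08, -0.13 and -0.06 in the same SMC3 quartiles. In the RUNX1 quartiles they gave 0.05, -0.06, -0.01 and 0.03. Background-subtracted reads gave 0.37, 0.37, 0.34 and 0.28 by SMC3 quartile and 0.44, 0.42, 0.42 and 0.36 by RUNX1 quartile. Within a narrower range of −log10 q, fold and reads are both tied to the local background by their definitions. Because the partners share that background, the higher values within quartiles cannot be read as agreement of strength. With a reciprocal overlap of 50% the correlation of the folds was 0.23, so its size depends on which pairs are admitted. Computed per autosome it was above 0 on 16 and below 0 on 6 of the 22, from -0.15 on chromosome 20 to 0.24 on chromosome 13. At the 3266 joint sites with GATA2, RUNX1 fold ranked more like GATA2 fold (0.31) than like SMC3 fold (0.15), and SMC3 and GATA2 gave 0.18.

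In the full lists most RUNX1-only sites had a cohesin site within 50 kb. The median distance from a RUNX1-only summit to the nearest SMC3 summit was 18.8 kb (18.3 to 19.3), with quartiles of 7.37 and 40.1 kb. Of the 11398 RUNX1-only peaks 4.04% were within 1 kb of an SMC3 summit, 17.7% within 5 kb, 31.9% within 10 kb, 81.6% within 50 kb and 94.3% within 100 kb. The farthest was 1492 kb away, and 11395 of 11398 lay within 1000 kb. The medians were 19.1 kb (18.6 to 19.7) with GATA2 and 17.8 kb (16.8 to 19.0) without, with overlapping intervals. Strength gave no single order. By −log10 q the strongest quartile of RUNX1-only peaks lay at 16.6 kb (15.6 to 17.8) and the weakest at 19.8 kb (18.7 to 20.8). By fold the rank correlation with distance was 0.09 over all 11398, 0.16 within the weakest quartile and 0.14 within the strongest, so peaks of higher fold tended to lie slightly farther away.

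In the full lists SMC3-only sites lay farther from RUNX1, whose list holds fewer peaks. The median distance was 49.9 kb (48.9 to 50.9), with quartiles of 18.03 and 122.6 kb, and 1.75% were within 1 kb, 15.6% within 10 kb and 69.7% within 100 kb. Here GATA2 marked the nearer sites. The 3538 SMC3-only peaks with GATA2 were a median of 28.3 kb (26.7 to 29.8) from RUNX1 and 5.17% lay within 1 kb, while the 24513 without GATA2 were at 53.9 kb (52.8 to 55.1) and 1.26%. With both lists at 15216 peaks the medians were 41.5 kb for RUNX1-only and 47.8 kb for SMC3-only peaks, so most of the gap between the targets was not seen at equal length. Among peaks at or below 2 times the genome-wide background they were 43.7 and 130.9 kb. That limit leaves 6092 RUNX1 and 13943 SMC3 peaks, and shorter partner lists lengthen these distances.

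**Figure D4:**
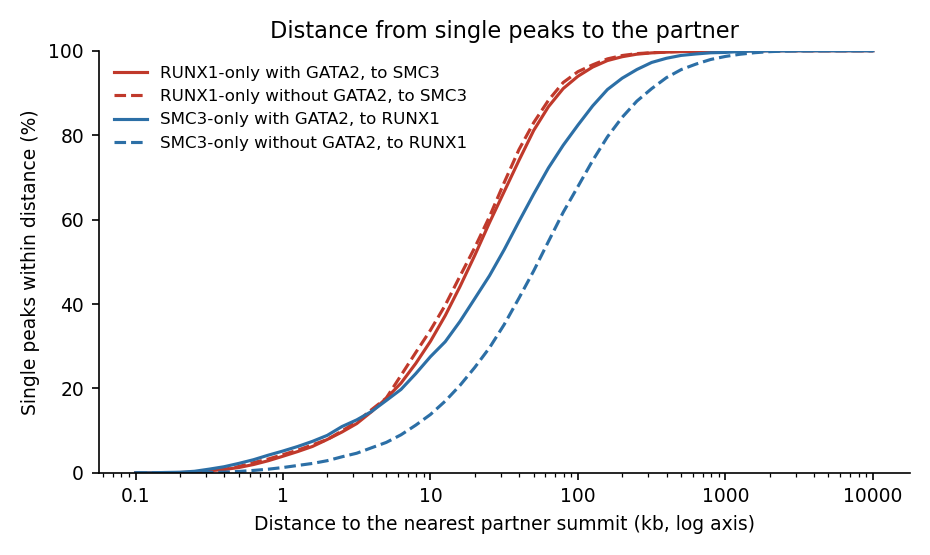
Cumulative percentage of RUNX1-only peaks (red) and SMC3-only peaks (blue) of Q592* by the distance from their summit to the nearest summit of the partner (kb, log axis), solid with a GATA2 peak and dashed without. The RUNX1-only curves nearly coincide, with medians of 19.1 and 17.8 kb, and the SMC3-only curves are apart, with medians of 28.3 and 53.9 kb.

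Joint sites were in denser surroundings than single ones. Of the joint RUNX1 peaks 35.4% had another RUNX1 peak within 10 kb and 76.6% within 50 kb, compared with 29.0% and 65.4% of RUNX1-only peaks. Of the joint SMC3 peaks 42.4% had another SMC3 peak within 10 kb and 85.8% within 50 kb, compared with 37.0% and 78.0% of SMC3-only peaks. Joint and single peaks were not matched here for strength, GATA2 or local background.

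The autosomes differed moderately. The joint share of RUNX1 peaks ran from 16.7% on chromosome 17 (82 of 491) to 29.0% on chromosome 6 (371 of 1280), with a median of 23.7% over the 22. The joint share of SMC3 peaks had the same extremes, from 6.40% on chromosome 17 to 16.3% on chromosome 6. Chromosome 19 stood at one end of several measures. It had the most SMC3 peaks per RUNX1 peak (2.70, median of the autosomes 2.08), the smallest share of joint sites with GATA2 (62.4%, median 85.9%) and the shortest distances from single peaks to the partner (10.7 kb for RUNX1-only and 39.1 kb for SMC3-only). Summit distance varied little, with medians from 43 bp on chromosome 14 to 63.5 bp on chromosome 21.

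Single places show the patterns. Coordinates are those of hg19, counted from 1, and no gene is named because no annotation of that build was used here. Of the 6 joint sites with the best combined rank of both targets, the first lay at chr2:134875750-134876439. Its RUNX1 fold was 23.3 (rank 75 of 15216), its SMC3 fold 19.4 (rank 142 of 31878), its summits were 145 bp apart, and GATA2 was called there with a fold of 42.6. The next 3 sites had no GATA2 peak in either line, and their summits were 10 to 27 bp apart. They were at chr10:90595220-90595925 (RUNX1 fold 17.5, SMC3 18.8), at chr2:179279265-179279821 (9.47 and 12.7) and at chr16:87812700-87813040 (7.54 and 10.8). The last of the 6, at chr21:30117212-30118403, joined peaks whose summits were 709 bp apart. All 6 carried RUNX1 and SMC3 in WT as well.

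Strong RUNX1 on weak cohesin was exemplified by a site at chr1:231596364-231596828. RUNX1 had a fold of 22.9 with 501 reads at the summit (rank 10) and SMC3 a fold of 2.54 with 51 reads (rank 29958), 35 bp away. At a site at chr4:51413-52114 the folds were 12.3 and 1.78, and the local background was 9.76 and 12.1 times the genome-wide value. The third such site, on chromosome 8, had folds of 19.8 and 2.21 and a background of 5.08 and 10.8 times. The 3 carried GATA2 in both lines.

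The reverse, strong cohesin with RUNX1 in its weakest quartile, was found at chr14:23589913-23590776. SMC3 had a fold of 24.6 with 379 reads (rank 11) and RUNX1 a fold of 2.65 with 53 reads (rank 14418), with summits 32 bp apart. Similar sites lay at chr14:75774410-75775048 (SMC3 fold 19.8, RUNX1 3.09) and at chr21:39590920-39591409 (11.8 and 1.99). None of these 3 had a RUNX1 peak in WT, and all 3 had an SMC3 peak there.

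The 4 strongest RUNX1-only peaks had folds of 20.8 to 31.2 and ranked 2, 4, 8 and 13 among all RUNX1 peaks. The first, at chr9:126817023-126817476, had 517 reads at its summit and its nearest SMC3 summit 13.8 kb away. The others lay at chr10:96059120-96059675, at chr17:4110080-4110688 and at chr3:49062866-49063409, at 19.4, 7.17 and 37.7 kb from SMC3. All 4 carried GATA2 and were RUNX1 peaks without SMC3 in WT too.

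The 4 strongest SMC3-only peaks were also the 4 strongest SMC3 peaks of the list. They lay at chr17:32526857-32527553 with a fold of 40.6 and at chr17:32688260-32688968 with 35.0, at chr10:102193217-102194142 with 22.5 and at chr13:49343028-49343717 with 27.7. RUNX1 was 28.6, 3.91, 74.8 and 29.6 kb away. None overlapped GATA2 in either line, and all 4 were SMC3 peaks in WT.

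Set beside the same targets in WT, the joint sites of Q592* were mostly places that WT also occupied. Of the 3790 joint sites 2202 (58.1%, 56.5 to 59.7%) overlapped a joint site of WT. Another 1069 (28.2%, 26.8 to 29.7%) had SMC3 but no RUNX1 peak in WT, 226 (5.96%) RUNX1 but no SMC3, and 275 (7.26%) neither. The 524 joint sites without GATA2 differed from the 3266 with it: 24.8% (21.3 to 28.7%) were joint in WT and 61.5% (57.2 to 65.5%) had SMC3 alone there, compared with 63.4% (61.8 to 65.1%) and 22.9% (21.5 to 24.3%). Of the RUNX1-only peaks of Q592*, 47.2% had neither target in WT, 30.8% RUNX1 alone, 15.9% both and 6.16% SMC3 alone. Of the SMC3-only peaks, 90.7% had SMC3 alone in WT and 0.588% had RUNX1 there. Seen from WT, 48.1% (46.6 to 49.5%) of its 4579 joint sites were joint in Q592*, 39.0% (37.6 to 40.4%) had RUNX1 without SMC3 and 3.45% (2.96 to 4.02%) SMC3 without RUNX1. The WT lists hold 9399 RUNX1 and 41215 SMC3 autosomal peaks. With lists cut to equal length, except the shorter WT RUNX1 list, 35.92% of the joint sites of Q592* were joint in WT in place of 58.1%. The other shares were not computed at equal length.

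**Figure D5:**
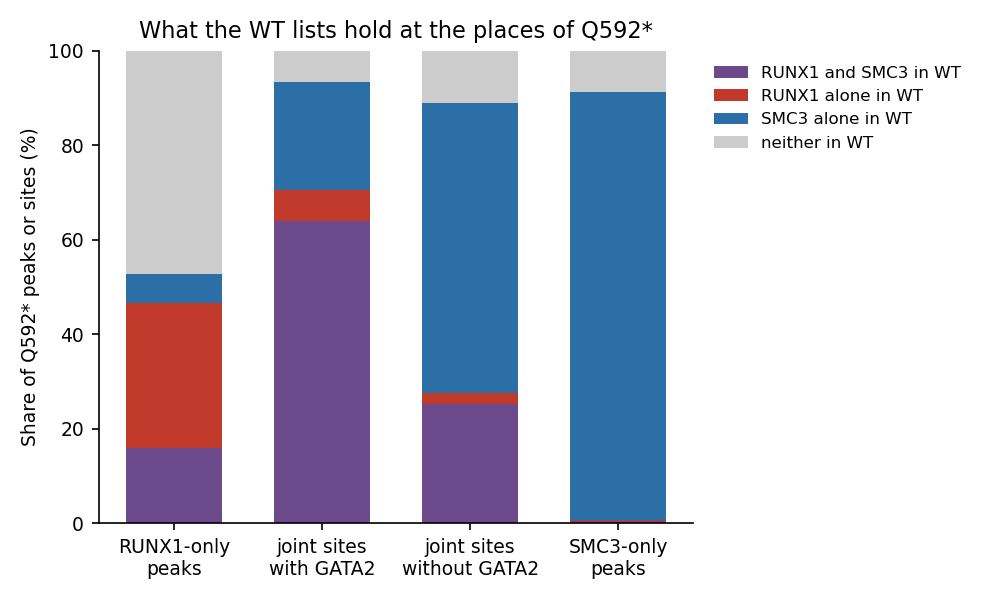
State in the WT lists of RUNX1-only peaks, joint sites with and without GATA2, and SMC3-only peaks of Q592*, as percentages that add to 100 in each bar. Both targets were found in WT at 63.9% of joint sites with GATA2 and at 25.2% of those without, where SMC3 alone made up 61.5%.

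Some measures had the same value in both lines and others did not, and with 1 pooled list each no difference was tested. The median summit distance was 55 bp in Q592* (52 to 58) and in WT (52 to 57). GATA2 was at 86.2% of the joint sites of Q592* and at 88.6% of the 4579 of WT. RUNX1 peaks were joint in 25.1% (24.4 to 25.8%) of cases in Q592* and 49.1% (48.1 to 50.1%) in WT. The lists differ in length, with 15216 RUNX1 and 31878 SMC3 peaks in Q592* and 9399 and 41215 in WT. RUNX1 also has 1 library in Q592* and 2 in WT, and these shares were not compared at equal length. The joint share grew with RUNX1 strength in both lines, up to 46.8% and 75.5% in the strongest decile. The profile over SMC3 strength was not alike. In WT the joint share of SMC3 peaks stayed between 17.0% and 20.8% in the 5 weakest deciles, whereas in Q592* it went from 34.3% to 6.34% over the same deciles. Folds at joint pairs had a rank correlation of 0.23 in WT and 0.06 in Q592*. At the 2199 sites of Q592* that were joint in both lines and had both WT values it was 0.21 in WT and 0.15 in Q592*, while RUNX1 in one line against RUNX1 in the other gave 0.69 and SMC3 against SMC3 0.53.

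GATA2 and SMC3 in Q592* make a second comparison, which shares its SMC3 list with RUNX1. SMC3 was on 11.8% (11.5 to 12.0%) of the 57483 GATA2 peaks and GATA2 on 21.4% of SMC3 peaks. The median summit distance was 62 bp (60 to 63), and the rank correlation of the folds was -0.24, compared with 55 bp and 0.06 for RUNX1 and SMC3. At the 3266 sites that also held RUNX1, GATA2 and SMC3 folds gave 0.18, so the sign depended on which sites were pooled. The SMC3 partner had a median fold of 3.99 at joint peaks with GATA2 and 3.67 with RUNX1. The 2 sets share peaks: 3291 of the 6829 SMC3 peaks with GATA2 also had RUNX1, with a median fold of 3.58. The 3538 SMC3 peaks with GATA2 but no RUNX1 had a median of 4.96 (quartiles 3.44 and 9.39). SMC3 peaks with neither had 6.42 (4.50 and 9.20).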

How the data were processed

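Per the labels' protocols, chromatin was fixed in 1% formaldehyde for 10 minutes, sheared, immunoprecipitated with antibodies to GATA2, RUNX1 or SMC3 and sequenced. The submitters' processing notes name Bowtie2, Picard, MACS2 and hg19, with their versions not given in the sources used here. For each summit the authors deposited a fold enrichment (a ratio of ChIP signal to local background) and the −log10 of its p-value and of its q-value. Lists are named as merged and were treated as 1 pooled call per group, although Q592* RUNX1 has 1 library by its labels.

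Overlap (1 bp), summit distance (start plus offset) and nearest summit on the same chromosome were computed on autosomes. ChIP reads and local background at each summit were recovered from fold and p, giving whole reads for 100% of peaks within 0.002 of the deposited −log10 p. Functions were tested on simulated peaks. Members, classes and sites to name followed fixed rules: the 6 joint sites with the lowest sum of ranks, the 4 strongest single peaks of each target and the 3 strongest mismatched pairs each way. They were chosen with earlier results of these data known. Planned gene lists and motifs were not run, since hg19 sequence and annotation were not used here. Scripts ran under Python 3.11.15 with matplotlib 3.10.9, scipy 1.17.1, pandas 2.3.3 and numpy 2.4.6.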

Additional observations from a re-analysis of the deposited data

How the results depend on the processing

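No paired analysis was possible because each list is pooled over its libraries and carries no replicate numbers, and for the same reason no library could be left out. Of 70 alternative values 25 stayed within the interval of the reported value (counts: within 1.5 times), 44 moved and 1 changed sign; the cause of the changes was not tested unless the construction shows it. All 9 results stayed with every contig, and the median summit distance lay between 47.5 and 55 bp in all alternatives. Weak SMC3 peaks carry most joint calls, so thresholds move the shares most. The background limit of 5 times, the background-subtracted reads and the full GATA2 list were added after the results were seen.

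A −log10 q of at least 10 gave 1173 joint RUNX1 peaks, 11.51% of RUNX1 and 4.829% of SMC3 peaks joint, a rho of 0.01626, single-peak distances of 25.23 kb (RUNX1-only) and 72.23 kb (SMC3-only), GATA2 at 74.16% of joint sites and 44.12% joint in WT. Equal list lengths gave 585 peaks, 3.845% and 3.805%, a summit distance of 49 bp, a rho of 0.133, 41.53 and 47.8 kb, GATA2 at 28.15% (50.95% with the full GATA2 list) and 35.92% joint in WT; these lists are shorter, and the WT RUNX1 list, with 9399 peaks, was not trimmed. Local background at most 2 times genome-wide gave 1281 peaks, 21.03% and 9.195%, a rho of 0.02996, 43.69 and 130.9 kb and 45.18% joint in WT. These lists are also shorter, with 6092 RUNX1 and 13943 SMC3 peaks in Q592*. The limit of 5 times gave 24.16%, 11.62%, 21.39 kb and 58.03 kb.

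A reciprocal overlap of 50% gave 17.49% and 8.351%, 47.5 bp, a rho of 0.2263, 15.93 and 46.32 kb, GATA2 at 89.59% and 46.99% joint in WT. Summits within 200 bp gave 22.91% and 10.94%, 48 bp, 17.98 and 48.85 kb and 54.85% joint in WT. The rank correlation changed sign to -0.01927 with −log10 q as strength and was 0.2102 with background-subtracted reads.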
